A study of Mus musculus with 6 samples.

Results

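The aminoacyl-tRNA synthetases were followed in endothelial cells of embryonic mouse hearts that were wildtype, heterozygous or deleted for Dll4, the gene of a Notch ligand. The genes were chosen by name from the deposited count table: symbols formed from the letter or letters of the enzyme, the ending "ars" or "prs", and an optional 1 or 2, together with the 2 subunit genes Farsa and Farsb. This gave 37 of the 41214 genes in the table. They were 20 genes of cytosolic enzymes, of which Gars and Kars also supply the mitochondrial enzyme, and 17 genes of enzymes that work in mitochondria. Lars2, the mitochondrial leucyl enzyme, contains sequence resembling ribosomal RNA and is described apart, which leaves 36 genes for the counts below.

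All 3 groups carried the transgene Pdgfb-iCreERT2-IRES-EGFP, in which the Pdgfb promoter makes endothelial cells produce EGFP and a Cre that acts once tamoxifen is given. The wt embryos (labelled WT) had no floxed allele, the het embryos (Dll4+/-) came from Dll4 flox/flox parents crossed with wildtype, and the KO embryos (Dll4-/-) from crosses of Dll4 flox/flox parents with each other. Tamoxifen was given at E13.5 and hearts were taken at E14.5 (embryonic days), from litters of several females. Cells positive for CD31 and green fluorescence were sorted, so the sort reports the transgene and not recombination. The labels do not give the number of embryos behind a library, and the p-values below measure the spread between libraries. Each group had 2 libraries, with the label numbers 4 and 5 in wt, 2 and 3 in het, and 1 and 2 in KO.

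Each synthetase joins 1 amino acid to the tRNAs that read its codons, so every protein made by cytosolic ribosomes depends on the cytosolic set and every protein made inside mitochondria on the mitochondrial set. In the cytosol 8 of the enzymes sit together in the multisynthetase complex, which is held by the scaffold proteins encoded by Aimp1, Aimp2 and Eef1e1. Many cytosolic synthetase genes are known targets of Atf4, the transcription factor of the amino acid response.

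Totals ran from 1537894 to 6501789 counts per library, with the 2 deepest libraries in KO. Levels are given as CPM, edgeR's unit for counts scaled to a common library size, here after TMM scaling. Dll4 stood at 196 and 183 CPM in wt, 81.2 and 85.85 in het, and 19.35 and 13.7 in KO, in the order of the labels. The summed level of 9 endothelial markers was 6490 and 6250 CPM in wt and 5850 and 6240 in het. It was lowest in KO, at 5470 and 5280. Members of this list moved in opposite directions in KO against wt. Cdh5, the cadherin of endothelial junctions, fell (log2 fold change -2.29 ± 0.09, adjusted p = 1.87e-13), from 1981 and 1928 CPM to 421 and 381. The lower sum in KO rests on Cdh5, whose fall was larger than that of the sum. Erg (-1.26) and Emcn (-0.40) also fell, while Kdr (0.44) and Tek (0.77) rose and the other 4 were not called. Among markers of other cells, the summed level was 91.1 to 103 CPM in wt, 146 to 194 in het and 43.6 to 47.8 in KO for 8 cardiomyocyte genes, 64.2 to 103, 161 to 199 and 46.0 to 84.9 for 8 mural and fibroblast genes, 18.4 to 51.9, 48.2 to 163 and 6.79 to 24.4 for 6 macrophage genes, and 144 to 416, 118 to 378 and 182 to 234 for 6 erythroid genes. No listed marker was at 0 in every library. The part of these cells in the values below was not tested, and in a bulk sample fewer cells of a type cannot be told apart from less RNA per cell.

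In wt the cytosolic genes lay above the mitochondrial ones. Per kilobase of the longest coding transcript, the cytosolic levels ran from 12.8 to 109 CPM per kb with a median of 33.0, and the mitochondrial levels from 1.09 to 11.5 CPM per kb with a median of 6. Gars, the glycyl enzyme of both compartments, was at the top with 109 ± 3.29 CPM per kb (SD, n = 2). At the border between the sets, Cars, the cytosolic cysteinyl enzyme, stood at 12.8 ± 0.8 and Rars2, the mitochondrial arginyl enzyme, at 11.5 ± 2.85 CPM per kb, which do not differ beyond their spread. Mars2, the mitochondrial methionyl enzyme, was at the bottom with 1.09 ± 0.361. This rank depends on the transcript chosen, which for Mars2 is the longest of the mitochondrial set at 11294 bases. By CPM alone Mars2 was at 12.3 in wt, and Pars2 was the lowest of the set at 5.1. By CPM per kb, the cytosolic gene was higher in wt in each of 16 pairings with the mitochondrial gene for the same amino acid. These folds ran from 1.87 for Cars over Cars2 to 22.8 for Wars over Wars2, with a median of 5.32. Their size and order also depend on the transcripts chosen. Farsa and Farsb encode the subunits of 1 enzyme and are both paired with Fars2.

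**Figure D1:**
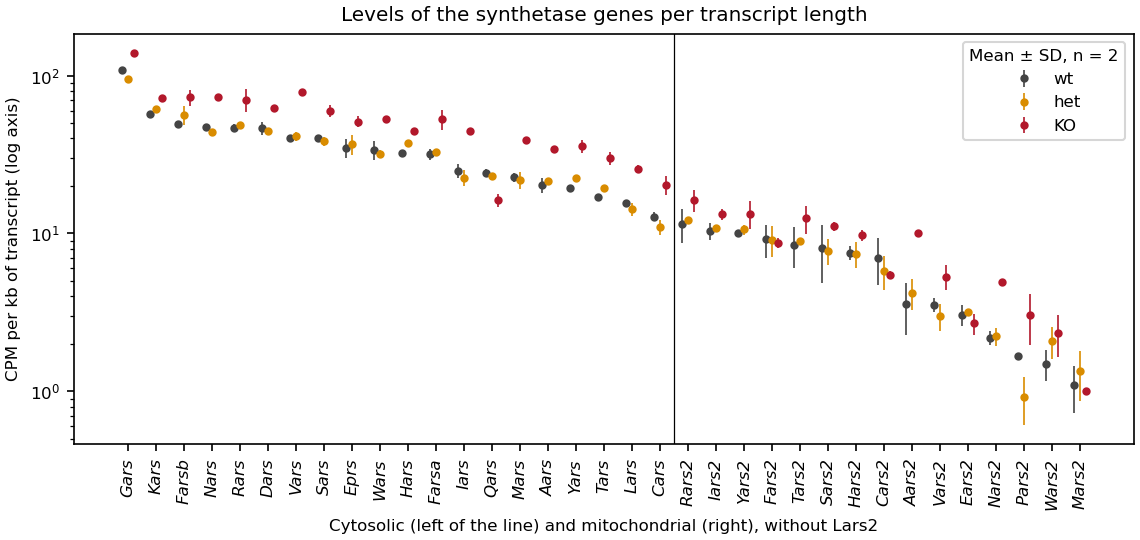
Mean level of each gene in CPM per kb of its longest coding transcript (log axis) in wt, het and KO, with bars for the SD of 2 libraries; cytosolic genes are left of the line and mitochondrial genes right of it. Gars tops the cytosolic set at 109 CPM per kb in wt, and in KO the points of most cytosolic genes lie above those of wt and het while those of Qars lie below.

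KO was set against wt to see which synthetase genes differ in embryos with both Dll4 alleles targeted. The KO libraries were also deeper, differed in RNA makeup, as described with Lars2 below, and came from other crosses. Genotype cannot be told apart from these. All 20 cytosolic genes passed the test, 19 of them higher in KO and 1, the glutaminyl gene Qars, lower. Both KO libraries lay above both wt libraries in each of the 19 and below both in Qars, as was so for 33.2% and 34.5% of all tested genes. The median log2 fold change of the 20 genes was 0.64, with values from -0.56 to 0.96, beside a median of -0.02 over the 10952 genes tested. Calls rest on edgeR's quasi-likelihood test with Benjamini-Hochberg adjustment, at 0.05, and by that rule 14.7% of all tested genes were higher and 17.3% lower. Of the 3768 tested genes whose mean level lay in the range of the cytosolic set, 47.4 to 272 CPM, 23.6% were called higher and 21.8% lower. The summed level of the 20 genes was 2100 and 2103 CPM in wt, 2063 and 2131 in het, and 3117 and 3263 in KO.

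**Figure D2:**
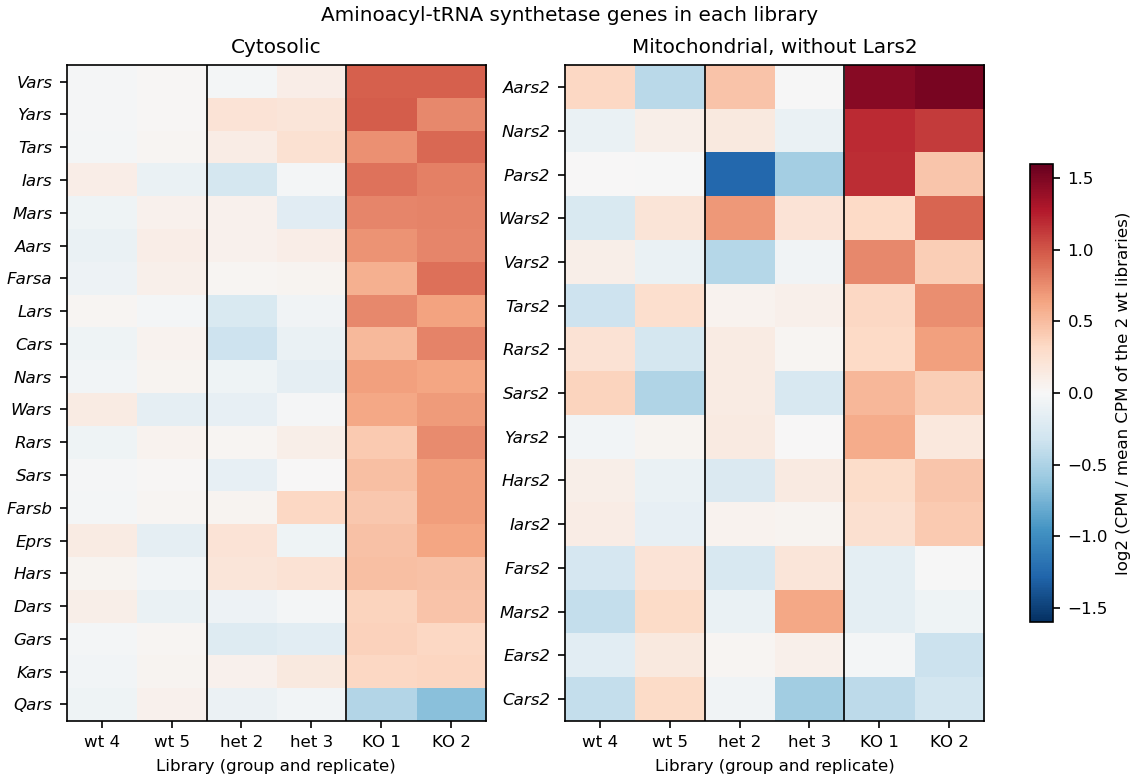
Level of each gene in each of the 6 libraries as log2 of its CPM over the mean CPM of the 2 wt libraries; red is higher and blue lower, and black lines part the groups. In the cytosolic panel both KO columns are red for 19 genes and blue for Qars, and the het columns stay near the wt columns.

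The valyl gene Vars led by adjusted p. It stood at 165 and 168 CPM in wt, 163 and 179 in het, and 322.5 and 324 in KO, 1.94-fold higher in KO than in wt (log2 fold change 0.96 ± 0.11 (SE), adjusted p = 5.76e-07). The KO libraries were far above the other 4, which lay close together.

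The isoleucyl gene Iars, a member of the multisynthetase complex, was at 119 and 102.5 CPM in wt, 91.2 and 108 in het, and 201 and 193 in KO (0.83 ± 0.13, adjusted p = 3.52e-05). The alanyl gene Aars was at 108 and 125 CPM in wt, 122.5 and 126 in het, and 192 and 201 in KO (0.76 ± 0.12, adjusted p = 5.47e-05). In both genes the wt and het libraries overlapped and the KO libraries did not overlap either.

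The tyrosyl gene Yars was at 56.1 and 57.6 CPM in wt, 66.2 and 64.9 in het, and 111 and 96.9 in KO (0.88 ± 0.15, adjusted p = 1.18e-04). The threonyl gene Tars was at 66.35 and 69.6 CPM in wt, 74.1 and 80.3 in het, and 113 and 128 in KO (0.83 ± 0.14, adjusted p = 1.31e-04). In these 2 genes the het libraries also lay above both wt libraries, by less than the test could call (adjusted p = 0.783 and 0.782). Of the 20 cytosolic genes, 5 had this order and 4 had the reverse, namely Cars, Gars, Lars and Nars. Among all tested genes the shares with these orders were 19.2% and 18.8%.

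The asparaginyl gene Nars was at 125 and 132 CPM in wt, 123 and 116 in het, and 203 and 199.8 in KO (0.65 ± 0.11, adjusted p = 1.81e-04). The methionyl gene Mars, of the complex, was at 64.2 and 70.2 CPM in wt, 70.5 and 59.3 in het, and 115 and 117 in KO (0.79 ± 0.14, adjusted p = 2.32e-04). The seryl gene Sars was at 141 and 145 CPM in wt, 131 and 143 in het, and 199.6 and 228 in KO (0.58 ± 0.12, adjusted p = 6.36e-04). KO was the high group in all 3.

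The tryptophanyl gene Wars was at 105 and 86.1 CPM in wt, 86.9 and 94.2 in het, and 146 and 153 in KO (0.64 ± 0.13, adjusted p = 8.68e-04). The leucyl gene Lars, of the complex, was at 63.8 and 60.75 CPM in wt, 52.7 and 60.03 in het, and 106 and 97.2 in KO (0.70 ± 0.15, adjusted p = 9.62e-04). Here the high wt library of Wars was still below both KO libraries, and Lars showed no overlap.

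Farsa, the alpha subunit of the phenylalanyl enzyme, was at 54.8 and 61.4 CPM in wt, 59.1 and 60.03 in het, and 86.2 and 107 in KO (0.74 ± 0.16, adjusted p = 0.00113). Eprs, whose product charges both glutamic acid and proline, was at 187 and 154 CPM in wt, 199 and 162 in het, and 237 and 265 in KO (0.55 ± 0.12, adjusted p = 0.00177). The spread between the wt libraries of Eprs was the wider one, and its call was lost without wt replicate 5 (0.43, adjusted p = 0.0573).

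The other 7 cytosolic genes that rose were Rars, Farsb, Cars, Gars, Hars, Dars and Kars, for arginine, the beta subunit of the phenylalanyl enzyme, cysteine, glycine, histidine, aspartic acid and lysine. Their log2 fold changes ran from 0.34 for Kars to 0.67 for Cars, with adjusted p from 0.00210 for Rars to 0.0330 for Kars. Gars and Kars, which serve both compartments, were the 2 smallest rises, at 1.27-fold and 1.26-fold. Each of these 7 calls was lost when at least 1 library was left out.

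Qars, the glutaminyl gene and a member of the complex, went the other way. It was at 64.6 and 70.9 CPM in wt, 63.4 and 65.6 in het, and 48.8 and 42.6 in KO, 1.47-fold lower in KO than in wt (-0.56 ± 0.16, adjusted p = 0.0103). The KO libraries were the lowest of the 6, and wt and het overlapped. The call was lost with DESeq2, with scaling by library size only and when KO replicate 2 or either wt library was left out. Over the alternatives the log2 fold change of Qars ran from -0.72 to -0.20 and its adjusted p from 0.00105 to 0.334.

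By structure and assembly, the rise ran through each subgroup. Of the 8 genes of the multisynthetase complex 7 rose and Qars fell, and all 12 cytosolic genes outside it rose. Of the 9 genes of class I enzymes, the family with a Rossmann-fold active site, 8 rose and Qars fell, with a median of 0.70. All 10 genes of class II enzymes, which are built on a different fold, rose, with a median of 0.57. Eprs joins a catalytic unit of each class. Of all tested genes 14.7% were called higher and 17.3% lower, and no difference between these subgroups was tested.

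**Figure D3:**
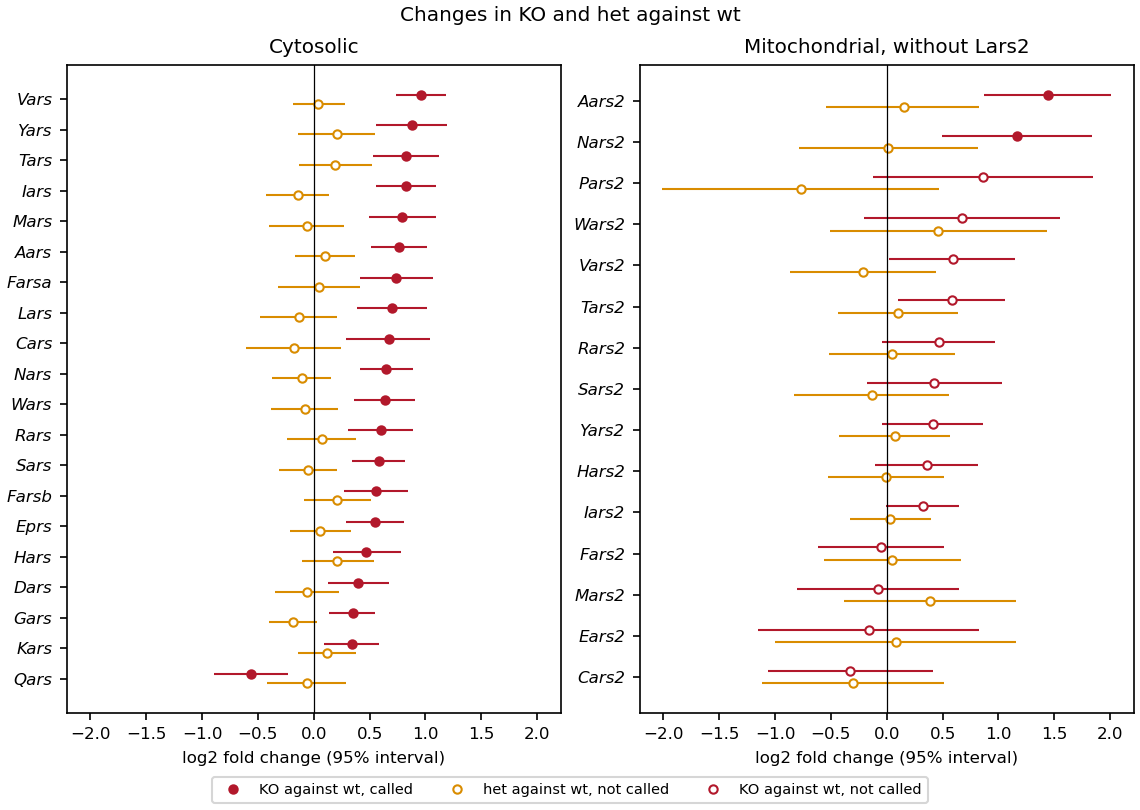
Log2 fold change of each gene in KO against wt (red) and het against wt (orange) with 95% intervals from the edgeR fit; filled points passed at an adjusted p under 0.05. Among cytosolic genes 19 red points are right of 0 and Qars is left of it, while of the 15 mitochondrial genes drawn only Aars2 and Nars2 have filled red points and no orange point is filled.

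Promoters of the cytosolic genes, of which 19 rose and Qars fell in KO against wt, were read from RefSeq's GRCm38.p6 table. Those of the mitochondrial genes were read beside them. Windows ran from 250 bases before to 50 bases after the start. Of the 36 genes 25 had an entry, and none is shown for, among others, Cars, Hars, Hars2, Lars, Mars, Nars, Pars2, Rars, Vars and Wars. Searched on both strands were CACGTG, the E-box bound by Myc and its partners, and TGATGNAA, the core of the C/EBP-ATF element bound by Atf4. Counts are of genes with a match in any of their windows. The element TGATGNAA was present in 5 of 12 cytosolic genes (41.7%) and in none of 13 mitochondrial genes. Of all 27025 genes with a RefSeq promoter, not only those tested here, 4.51% held it. CACGTG was present in 4 of 12 cytosolic genes (33.3%), in 1 of 13 mitochondrial genes (7.69%) and in 8.09% of all genes with a RefSeq promoter. Qars, among the 12, held neither motif. These matches are descriptions of letters and not of binding. Distances are from RefSeq's starts. GENCODE, the annotation that gave the symbols, starts Aars at 111033144, so the Aars E-box printed lies inside that gene. It overlaps an annotated exon. A selection of matches in cytosolic genes that rose is shown, not all of them, so that the motif can be seen in its surroundings, with the motif in capitals, 5′ to 3′ on the gene's strand.
Aars, chr8:111033685-111033712, plus strand, E-box 146 bases before the start: gtcaaccctgtCACGTGacactccatgt
Iars, chr13:49682050-49682077, plus strand, E-box 69 bases before the start: accaatcgccaCACGTGttgtttgtagg
Iars, chr13:49682126-49682155, plus strand, C/EBP-ATF element 7 bases after the start: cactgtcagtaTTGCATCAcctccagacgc
Tars, chr15:11399655-11399684, minus strand, C/EBP-ATF element 15 bases before the start: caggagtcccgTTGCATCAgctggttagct
Tars, chr15:11399623-11399650, minus strand, E-box 19 bases after the start: ccgcctgtggcCACGTGgcgcacgcgca
Farsb, chr1:78488920-78488947, minus strand, E-box 39 bases before the start: tagacaggcatCACGTGagacagcccaa
Gars, chr6:55037960-55037989, plus strand, C/EBP-ATF element 30 bases before the start: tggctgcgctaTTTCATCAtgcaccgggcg
Yars, chr4:129189895-129189924, plus strand, C/EBP-ATF element 3 bases after the start: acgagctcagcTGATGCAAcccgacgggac
Among the matches printed, the element reads TTGCATCA, the reverse complement of TGATGCAA, in Iars and Tars, and TTTCATCA in Gars, while in Yars it lies on the gene's own strand.

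Of the 16 mitochondrial genes 3 rose in KO against wt and none fell, which is 18.8% of them, near the 14.7% of all tested genes. Scaling by library size only called 12 of them, where it called 35.4% of all genes higher. In the level range of this set, 5.72 to 62.6 CPM, 11.7% of 6587 genes were called higher and 15.2% lower. The median log2 fold change was 0.44. In 12 of the 16 both KO libraries lay above both wt libraries, against 33.2% of all tested genes. The summed level of the 16 genes was 291 and 292 CPM in wt, 291 and 300.1 in het, and 411 and 419.9 in KO. Standard errors of the log2 fold change ran from 0.16 to 0.48 here, against 0.10 to 0.18 in the cytosolic set, with 3 to 523 counts per gene and library against 46 to 2567. The difference between the sets was not tested.

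Aars2, the mitochondrial alanyl enzyme, stood at 14.98 and 8.86 CPM in wt, 16.4 and 11.9 in het, and 32.7 and 34.3 in KO, 2.72-fold higher (1.44 ± 0.27, adjusted p = 3.53e-04). The KO libraries of Aars2 were clear of the other 4. Nars2, the asparaginyl enzyme, stood at 7.71 and 8.86 CPM in wt, 9.26 and 7.68 in het, and 18.96 and 17.98 in KO (1.17 ± 0.32, adjusted p = 0.00829), and its call was lost with DESeq2 and when wt replicate 4 or KO replicate 1 was left out. The estimates for Aars2 and Nars2 were each above those of all cytosolic genes, with 95% intervals of 0.87 to 2.01 and 0.49 to 1.84. With the larger standard errors of this set only large estimates can pass. The ranking of called genes therefore does not show a larger rise in mitochondria.

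The 13 other mitochondrial genes were not called in KO against wt. Tars2, Vars2, Iars2, Rars2, Yars2, Pars2, Wars2, Hars2 and Sars2 had log2 fold changes from 0.32 for Iars2 to 0.86 for Pars2, with adjusted p from 0.0606 for Tars2 to 0.291 for Sars2. Cars2, Ears2, Mars2 and Fars2 were at -0.33, -0.16, -0.08 and -0.05. Their 95% intervals were wide, from -0.80 to 0.65 for Mars2, for example. Tars2, the threonyl enzyme, passed with no filter on low counts, with scaling by library size only and without wt replicate 5 or KO replicate 1.

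With 1 Dll4 allele targeted, in het against wt, no synthetase gene passed. Of the 36 genes 20 had a fold change above 0 and 16 below, with a median log2 fold change of 0.04 beside 0.01 over all genes. No member had an unadjusted p under 0.05 with edgeR, and none was called by DESeq2 or limma-voom. Over all tested genes 0.128% were called higher and 0.0457% lower. In 6 of the 36 genes (16.7%) both het libraries lay above both wt libraries, against 19.2% of all tested genes, and in 5 (13.9%) below both, against 18.8%. The 95% intervals bounded the cytosolic changes between -0.61, for Cars, and 0.55, for Yars, and the mitochondrial ones between -2.01, for Pars2, and 1.43, for Wars2. The interval of Vars in het, -0.19 to 0.28, lay below its interval in KO against wt, 0.74 to 1.18. Both intervals use the same wt libraries. Dll4 itself fell in het (log2 fold change against wt -1.18 ± 0.15, adjusted p = 7.35e-04), a call lost without wt replicate 4.

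KO against het bears on the other allele, with the same limit from the depth, makeup and crosses of the KO libraries. It shares the KO libraries with the comparison above, so the agreement of the 2 is not independent. Of the cytosolic genes 16 of 20 were higher in KO and Qars was lower (-0.50 ± 0.16, adjusted p = 0.0220), while 13.9% of all tested genes were called higher and 17.2% lower. Iars had the largest log2 fold change of these, 0.97 ± 0.13 (adjusted p = 5.88e-06), followed by Vars with 0.91 ± 0.10 (adjusted p = 1.06e-06). Farsb, Hars and Kars did not pass, at 0.35, 0.26 and 0.22 (adjusted p = 0.0528, 0.171 and 0.161), though Farsb passed in 7 of 15 alternatives. Qars lost its call in 8 settings, among them without wt replicate 4, het replicate 2, het replicate 3 or KO replicate 2.

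In mitochondria 5 of 16 genes (31.2%) were higher in KO than in het and none lower, beside 13.9% and 17.2% of all tested genes. In the level range of this set, 10.1% of 6587 genes were called higher and 15.4% lower. Aars2 (1.29 ± 0.27, adjusted p = 8.94e-04) and Nars2 (1.15 ± 0.32, adjusted p = 0.00904) were among them again. Pars2, the prolyl enzyme, stood at 5.14 and 5.06 CPM in wt, 2.14 and 3.49 in het, and 11.6 and 6.96 in KO, and passed against het (1.63 ± 0.51, adjusted p = 0.0190) but not against wt (0.86 ± 0.47, adjusted p = 0.176). Vars2, the valyl enzyme, stood at 16.7 and 14.55 CPM in wt, 11.4 and 15.01 in het, and 26.6 and 20.5 in KO (0.80 ± 0.27 against het, adjusted p = 0.0306). The calls of Pars2 and Vars2 were lost with DESeq2, with limma-voom and without het replicate 2, het replicate 3 or KO replicate 1, and that of Nars2 with DESeq2, with length and GC trends removed and without het replicate 3 or KO replicate 1.

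Lars2 took 16.35% and 16.7% of all counts in wt, 17.1% and 16.4% in het, and 0.0572% and 0.0611% in KO. It was 360-fold lower in KO than in wt (log2 fold change -8.49 ± 0.08, adjusted p = 6.03e-25) and at 0.03 in het against wt (adjusted p = 0.924). Other abundant non-messenger RNA moved with it. The mitochondrial ribosomal RNA genes mt-Rnr1 and mt-Rnr2 took 1.33% and 2.26% of counts in wt, 1.84% and 3.22% in het, and 0.108% and 0.0954% in KO, while Rn7s1 and Rn7s2, which encode 7SL RNA, took between 0.129% and 0.234% in wt and het and 0.00123% and 0.00233% in KO. At 483 and 517 CPM in KO, or 128 CPM per kb, Lars2 was still above every other mitochondrial synthetase gene, of which Rars2 was the highest in KO at 16.2 CPM per kb. How many of these reads come from the messenger RNA of the enzyme was not tested, and genotype cannot be told apart from what else set these KO libraries' makeup. With Lars2, mitochondrially encoded genes, 7SL and 7SK RNA left out before scaling, the same 22 genes higher and Qars lower were called in KO against wt. This setting removes those genes only. It cannot show whether what set the makeup of the KO libraries also moved the counts of other genes.

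**Figure D4:**
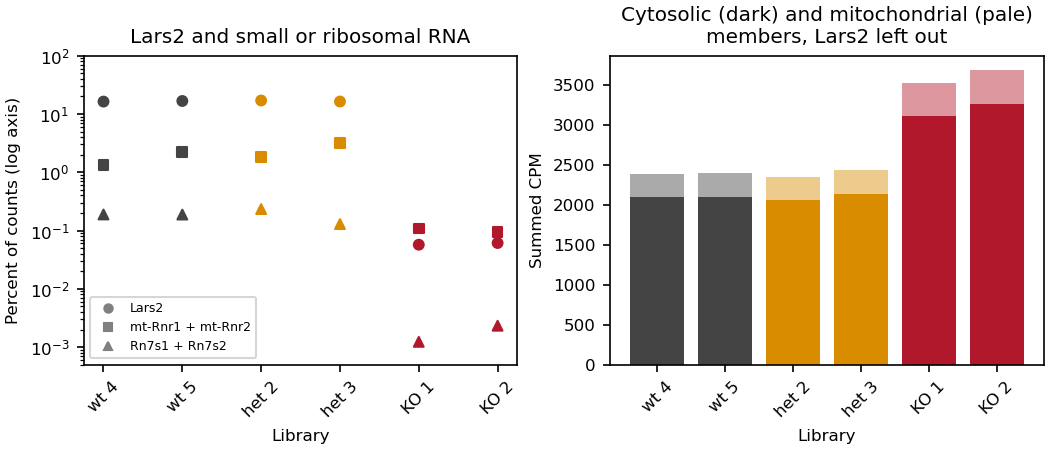
Left, percent of all counts taken by Lars2, mitochondrial ribosomal RNA and 7SL RNA in each library (log axis); right, summed CPM of the cytosolic (dark) and mitochondrial (pale) synthetase genes without Lars2. Lars2 falls from about 16.5% of counts in wt to 0.0592% in KO, while the summed cytosolic level is 2102 CPM on average in wt and 3190 in KO.

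Of 8 genes for complex scaffolds, relatives and editing factors none was called in any comparison. In KO against wt 14.7% of all tested genes were called higher and 17.3% lower. The list ran from -1.04 ± 0.56 for Prorsd1 to 0.93 ± 0.45 for Tarsl2 in KO against wt (adjusted p = 0.171 and 0.128). Aimp1, which holds the complex, stood at 42.4 and 51.9 CPM in wt, 29.9 and 30.7 in het, and 41.0 and 34.6 in KO (-0.30 ± 0.19 in KO against wt, adjusted p = 0.243). Aimp2, its core scaffold, was at -0.18 ± 0.16 and Eef1e1, another scaffold, at 0.18 ± 0.22 (adjusted p = 0.421 and 0.575). The median of the list was 0.02. Under the alternatives at most 2 genes of this list were called higher in KO against wt and none lower, and the difference between scaffold and enzyme genes was not tested.

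A list of 8 genes covered other steps of mitochondrial charging, which form glutaminyl-tRNA by amidation, formylate methionyl-tRNA or modify the tRNA anticodon. Of these only Mto1, a tRNA modification enzyme, passed in KO against wt. It stood at 16.7 and 10.1 CPM in wt, 27.8 and 25.1 in het, and 31.8 and 24.8 in KO (1.04 ± 0.27, adjusted p = 0.00537), a call lost without wt replicate 5 or KO replicate 1. Of 4 genes for selenocysteine, which is made on its tRNA, Secisbp2 fell (-0.95 ± 0.23, adjusted p = 0.00341), a call lost with DESeq2 and without wt replicate 4. The 3 others did not pass. In the same comparison 14.7% of all tested genes were called higher and 17.3% lower.

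Of 24 tested genes of the amino acid response, 8 rose and 2 fell in KO against wt, beside 14.7% and 17.3% of all tested genes. Atf4 itself was at 133 and 139.9 CPM in wt, 186 and 174 in het, and 164 and 144 in KO, and did not pass (0.18 ± 0.12, adjusted p = 0.277). Shmt2, of mitochondrial serine metabolism, rose (0.63 ± 0.13, adjusted p = 7.34e-04), as did Trib3, a pseudokinase (1.36 ± 0.29, adjusted p = 9.20e-04), whereas Ddit4, an inhibitor of mTORC1, fell (-2.67 ± 0.27, adjusted p = 1.95e-07). Under the alternatives between 4 and 14 were higher and between 1 and 3 lower. Of 7 tested regulators of this response, 3 rose, beside the same 14.7%, and this count varied under the alternatives. The 7 phosphorylate the initiation factor eIF2, act with a kinase that does, or restore it. Ppp1r15b, a subunit of the eIF2 phosphatase, was at 0.76 ± 0.16 (adjusted p = 0.00106). Eif2ak3, an eIF2 kinase, was at 0.72 ± 0.19 (adjusted p = 0.00701) and lost its call with DESeq2 and without wt replicate 4 or 5. Ppp1r15a, the stress-induced phosphatase subunit, was at 0.63 ± 0.19 (adjusted p = 0.0273) and lost its call with length and GC trends removed and when wt replicate 4 or either KO library was left out.

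Myc, the transcription factor of cell growth, stood at 60.4 and 56.3 CPM in wt, 115 and 122 in het, and 152.5 and 161 in KO. It was higher in het than in wt (1.02, adjusted p = 0.00113), a call lost without wt replicate 4, and higher in KO than in wt (1.42 ± 0.13, adjusted p = 7.07e-08). Myc was also higher in KO than in het (0.40 ± 0.12, adjusted p = 0.0181). That call was lost with DESeq2 and without het replicate 2 or KO replicate 2. No synthetase gene had a call in het against wt, where the 95% intervals of the cytosolic genes reached up to 0.55. Whether the patterns of Myc and the synthetase genes differ was not tested.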

How the data were processed

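The authors deposited expected counts per gene, which RSEM estimates from reads aligned to GRCm38, for 6 libraries, with CASAVA and cutadapt used upstream, per the submitters' processing notes. Versions are not given in the sources used here. RSEM divides reads shared by several genes, and SMART-Seq v4 libraries do not mark strand. Of the 37 synthetase genes 14 share exonic bases with another annotated gene, from 0.505% to 24.2% of their exonic length and above 10% in, among others, Aars, Fars2 and Iars2, and their values are less certain. Symbols came from GENCODE M21 (97.88% of identifiers matched). No other column held samples.

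Counts were rounded. edgeR 4.0.16 in R 4.3.3 was used with TMM scaling, filterByExpr (minimum count 10), 1 robust quasi-likelihood fit of all libraries (3 residual degrees of freedom) and two-sided tests, Benjamini-Hochberg adjusted over 10952 genes. SE is the log2 fold change over the square root of F. The procedure was tested on simulated counts. These held balanced changes and no shift in RNA makeup, so they cannot vouch for the fit under the makeup of the KO libraries. Alternatives used DESeq2 1.42.0, limma-voom (limma 3.58.1), other scaling, filters, samples, depth and a correction for length and GC content. Totals of 1537894 to 6501789 counts limit precision for low genes.

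Members and lists were chosen with earlier results of these data known. Values in each library are given for the 12 called cytosolic genes of lowest adjusted p in KO against wt, and for called mitochondrial genes, of which 1 is not reported here by name or in the plots by gene but is in the counts and sums; Qars was added as the single fall. From each list up to 3 called genes of lowest adjusted p are named. Aimp1, Aimp2, Eef1e1, Prorsd1, Tarsl2 and Atf4 were added after their values were seen.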

Additional observations from a re-analysis of the deposited data

How the results depend on the processing

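Directions are relative to the bulk of genes. Without TMM, by library size only, the all-gene median in KO against wt went from -0.02 to 0.35 on the log2 scale and the median of the 36 synthetase genes from 0.58 to 0.95, with 31 called higher. In KO against het it called 30 higher. Over the other settings, between 16 and 23 were called higher in KO against wt and between 18 and 22 in KO against het. In KO against wt 13 of the 23 called genes, among them Vars, Iars, Aars, Yars, Tars, Nars, Mars, Sars, Wars, Lars, Farsa and Aars2, passed in all 15 alternatives. The other 10, Cars, Dars, Eprs, Farsb, Gars, Hars, Kars, Qars, Rars and Nars2, lost the call in at least 1, with no change of sign. With length and GC trends removed the cytosolic median was 0.45 in place of 0.64, and Cars, Gars and Kars lost their calls. Without KO replicate 2 the count of cytosolic genes called higher was 13, and Cars, Dars, Farsb, Hars, Kars and Rars lost theirs. In KO against het the calls of Dars and Rars were lost without KO replicate 2, that of Tars with length and GC trends removed, and that of Eprs in both of these and without het replicate 3. The count called lower, which is Qars alone, was 0 in KO against wt with DESeq2 and with library size only, and 0 to 1 when single libraries were left out. In KO against het it was 0 with DESeq2, no filter, library size only and thinning to equal totals, and 0 to 1 when single libraries were left out. No synthetase gene was called in het against wt in any of the 15 alternatives. The cause of these changes was not tested, other than that leaving out a library leaves 1 in its group. No paired analysis was possible because the groups share fewer than 2 replicate numbers.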

Other observations

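Of 19 genes of tRNA maturation and export 6 rose and none fell in KO against wt, beside 14.7% and 17.3% of all tested genes. Nsun2, a tRNA cytosine methyltransferase, stood at 112 and 94.9 CPM in wt, 117 and 116 in het, and 251 and 244 in KO (1.25 ± 0.12, adjusted p = 8.46e-08). Xpo5, a nuclear export receptor for structured RNA, was at 1.29 ± 0.20 (adjusted p = 3.44e-05) and Elac2, which trims tRNA 3′ ends, at 1.12 ± 0.21 (adjusted p = 3.39e-04). The alternatives gave between 4 and 13 genes higher and none lower, the most with library size only.

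Among 19 genes of RNA polymerase III and its factors, which transcribe tRNA genes, 3 rose and 2 fell in KO against wt, shares near those of all tested genes (14.7% and 17.3%). The alternative subunits Polr3g and Polr3gl parted. Polr3g stood at 3.85 and 7.59 CPM in wt, 9.26 and 10.8 in het, and 16.2 and 22.05 in KO (1.80 ± 0.38, adjusted p = 9.17e-04). Polr3gl stood at 13.7 and 9.49 CPM in wt, 13.53 and 10.8 in het, and 3.51 and 2.71 in KO (-1.90 ± 0.44, adjusted p = 0.00221). Bdp1, of the initiation factor TFIIIB, was at -1.01 ± 0.22 (adjusted p = 0.00106). These 3 calls were lost without wt replicate 4, and the alternatives gave between 1 and 14 genes of the list higher and between 0 and 2 lower. Of 8 mitochondrial translation factors 1 rose, a share near the 14.7% of all tested genes. This was Gfm2, which recycles mitochondrial ribosomes (0.73 ± 0.22, adjusted p = 0.0124), a call lost with DESeq2, with length and GC trends removed and without wt replicate 4 or 5.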
